A study of Sus scrofa with 16 samples.

Results

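The small leucine-rich proteoglycans (SLRPs) were followed through the left ventricle of young pigs after cardiac ischemia/reperfusion (IR) injury. The family was defined by gene symbol, and the rows of BGN, DCN, LUM, FMOD, ASPN, OGN, OMD, PRELP and ECM2 were taken from the tables of estimated counts and of transcripts-per-million (TPM) values, the latter scaled for transcript length. All 9 symbols had a row among the 22629 genes, and all 9 passed the filter on low counts in every comparison. The 8 animals were White Yorkshire-Landrace farm pigs operated on at 30 days of age. In 4 pigs the left anterior descending artery was occluded for 1 h and then reperfused, and 4 sham pigs had the chest opened and the suture placed without occlusion. The paper's methods name heparin for the IR pigs and do not mention it for the sham pigs. Hearts were taken 4 weeks later, and each pig gave an RNA sequencing library of its scar zone and another of its border zone, 16 libraries in all. The IR females were pigs 2 and 14 and the IR males pigs 9 and 11. The sham females were pigs 4 and 5 and the sham males pigs 12 and 13. The scar zone block of IR pigs held scar together with neighboring myocardium, and the sham block came from the matching site, so neither is a pure tissue.

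SLRPs are secreted proteins with a core of leucine-rich repeats that bind collagen fibrils. Decorin (DCN) and biglycan (BGN) carry chondroitin or dermatan sulfate chains, bind TGF-β, and biglycan released from the matrix can also signal through Toll-like receptors. Fibromodulin (FMOD), lumican (LUM), osteomodulin (OMD) and PRELP form the second class, of which fibromodulin and lumican can carry keratan sulfate and shape fibril assembly. Asporin (ASPN) is a relative of decorin that lacks the chains, osteoglycin (OGN, also called mimecan) belongs to a further class, and ECM2 is a matrix protein with related repeats. In the heart they are products mainly of fibroblasts and are known from scars and fibrosis. On the Sscrofa11.1 assembly OGN, OMD, ASPN and ECM2 follow each other with 0 protein-coding genes between neighbors, as do DCN with LUM and FMOD with PRELP, while BGN lies apart from the other members.

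Libraries held 15427700 to 49045200 estimated counts, and the member with the fewest had 309 counts in its lowest library. The 4 libraries of the IR males were the deepest, at 33521400 to 49045200 estimated counts against 15427700 to 27088700 in the other 12, so depth and sex within the IR group cannot be told apart. The scar library of IR female pig 14 stood apart from the other female libraries, with 4.48 CPM (counts-per-million of the library, scaled between libraries) of the Y-linked DDX3Y against 0.389 to 1.23 in the other females and 68.4 to 103 in males. Its KDM5D level, also Y-linked, was 0.408 CPM against 0 in the other females and 4.27 to 10.1 in males. Whether this library holds some RNA of a male pig was not tested, so its values for the members may include a part from another animal. For 8 members both IR male scar libraries exceeded all other libraries. A part from those would raise the values of pig 14, by an amount not known here. Values without pig 14 are given beside several results. Defining markers of heart muscle were present in all scar zone libraries, where 12 cardiomyocyte markers summed to 75930 to 88285 TPM in IR pigs and 81901 to 89442 TPM in sham pigs.

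In the sham scar zone, DCN was the most abundant member per transcript length, at 531 ± 62.8 TPM (SD, n = 4). BGN followed at 54.2 ± 5.50 TPM. ECM2 (37.3 ± 2.45 TPM), PRELP (34.7 ± 3.32 TPM), LUM (28.9 ± 1.81 TPM), ASPN (25.5 ± 3.99 TPM) and OGN (19.5 ± 5.24 TPM) formed a middle range. FMOD (5.45 ± 0.663 TPM) and OMD (5.08 ± 1.33 TPM) were the lowest and did not differ beyond their spread. The sham family was thus mostly decorin, which supplied 67.4% to 74.6% of the family's TPM in the 4 sham scar zone libraries, whereas FMOD supplied 0.557% to 0.884%.

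FMOD differed most between IR and sham pigs in the scar zone. Its level there was 71.6 and 37.6 CPM in the IR females, pigs 2 and 14, and 628 and 397 CPM in the IR males, pigs 9 and 11. In the sham pigs 4, 5, 12 and 13 it was 23.9, 31.4, 33.3 and 33.7 CPM. All 4 IR values lay above all 4 sham values, and the IR males stood far above the IR females. Pig 14, whose library carried the Y-linked counts, was close to the highest sham value. Without it the lowest IR value was 71.6 CPM and the groups still did not overlap (fitted difference 3.58). With all pigs the fitted FMOD difference was 3.22 on the log2 scale (SE 0.78, 9.30-fold, unadjusted p = 0.00225 and adjusted p = 0.438, edgeR quasi-likelihood test). The exact two-sided permutation p for FMOD was 0.0286, the smallest that 4 against 4 pigs allow.

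BGN, the proteoglycan with a pair of glycosaminoglycan chains, was the other member whose groups did not overlap with all pigs included. It measured 209 and 124 CPM in the IR females and 673 and 537 CPM in the IR males. The sham pigs gave 111, 115, 115 and 98.8 CPM. The lowest IR value, of pig 14, was just above the highest sham value, and the males were again the highest. Without pig 14 the lowest IR value was 209 CPM and the groups still did not overlap (fitted difference 2.11). With all pigs the fitted BGN difference was 1.82 (log2, SE 0.46, 3.52-fold, unadjusted p = 0.00293 and adjusted p = 0.438, edgeR), with an exact permutation p of 0.0286. Across all genes tested, 2.03% had every IR scar zone value above every sham value, as 2 of the 9 members did.

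The other members of the second class, PRELP, LUM and OMD, had smaller differences. PRELP was 125 and 87.7 CPM in the IR females and 536 and 316 CPM in the IR males, against 114, 109, 106 and 103 CPM in the sham pigs. Only the males were clearly above the narrow sham range, and pig 14 lay below it. Without pig 14 the lowest IR value of PRELP was 125 CPM and the groups did not overlap, so the overlap rests on that library. The fitted PRELP difference was 1.30 (log2, SE 0.48, unadjusted p = 0.0232 and adjusted p = 0.438, edgeR). LUM was 115 and 166 CPM in the IR females and 378 and 359 CPM in the IR males, and 135, 168, 163 and 172 CPM in sham pigs. Both female values of LUM were within or below the sham range, and its fitted difference of 0.68 (SE 0.34, unadjusted p = 0.0790, edgeR) missed the threshold. OMD, a keratan sulfate proteoglycan best known from bone, was 22.8 and 31.1 CPM in the IR females, 38.6 and 71.9 CPM in the IR males, and 18.3 to 33.0 CPM in sham pigs. Its fitted difference was 0.61 (SE 0.33, unadjusted p = 0.0975, edgeR).

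DCN, the most abundant member, did not separate the groups. The IR females held 495 and 453 CPM and the IR males 1079 and 1710 CPM, while sham pigs held 659, 628, 522 and 618 CPM. The IR females lay below every sham pig and the IR males above every sham pig, so that the fitted difference of 0.62 (log2, SE 0.38, unadjusted p = 0.137 and adjusted p = 0.521, edgeR) averaged values on opposite sides. ASPN was 100 and 135 CPM in the IR females, 339 and 278 CPM in the IR males and 90.6 to 133 CPM in sham pigs. OGN was 42.6 and 57.6 CPM in the IR females, 155 and 215 CPM in the IR males and 38.7 to 69.7 CPM in sham pigs. The fitted differences were 0.93 for ASPN (SE 0.35, unadjusted p = 0.0255, edgeR) and 1.11 for OGN (SE 0.47, unadjusted p = 0.0408, edgeR). ECM2 had the smallest, 0.43 (SE 0.35, unadjusted p = 0.246, edgeR), with 67.4 and 111 CPM in the IR females, 214 and 248 CPM in the IR males and 99.1 to 128 CPM in sham pigs.

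**Figure D1:**
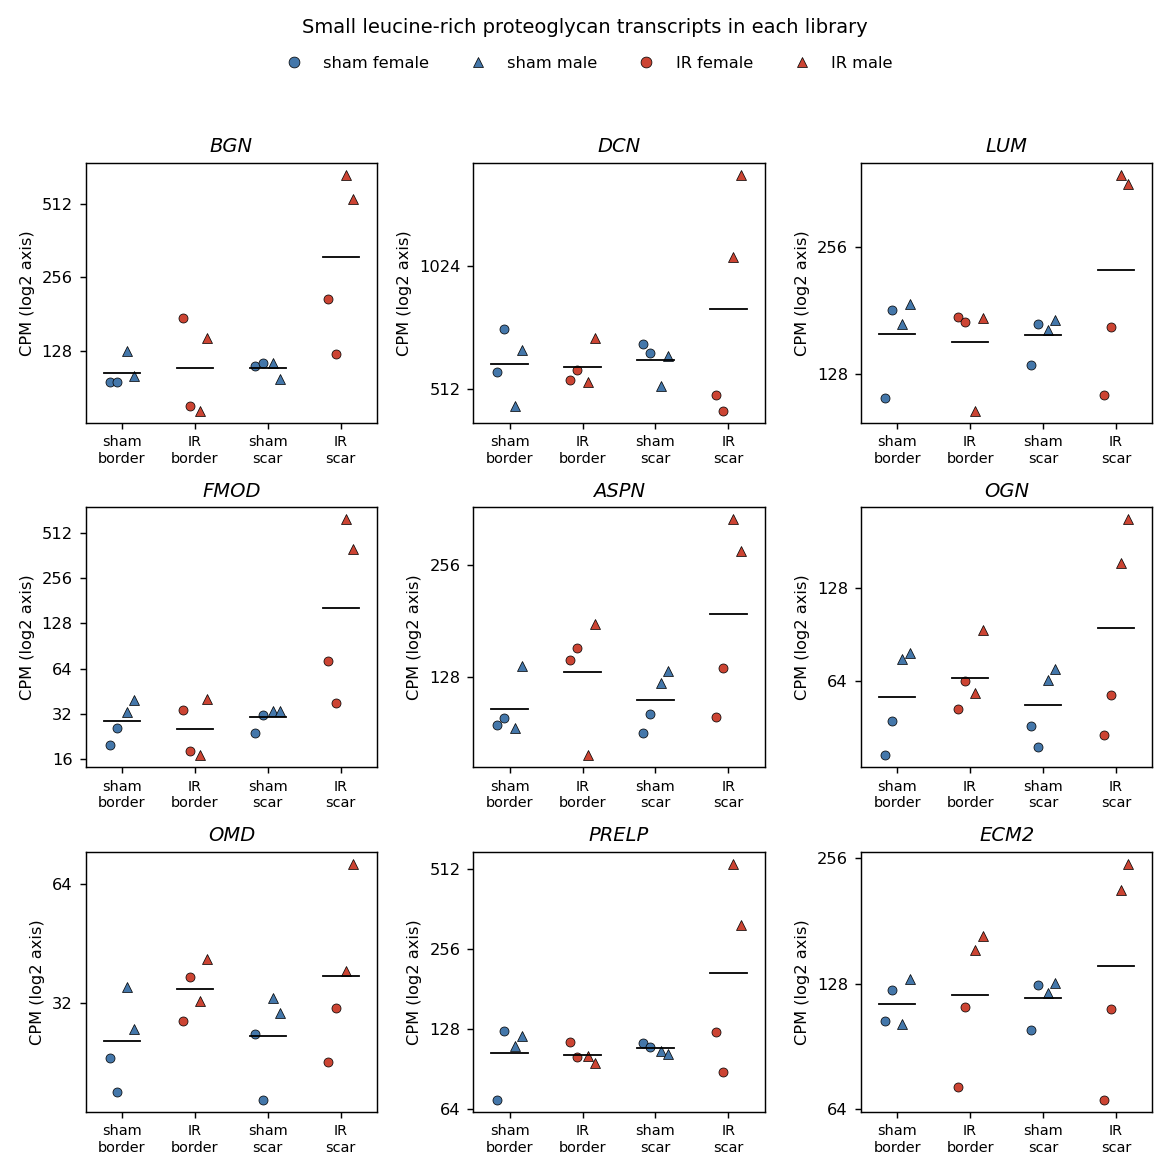
Level of each of the 9 members in each of the 16 libraries, in counts-per-million (CPM) on a log2 axis, by surgery and zone. Circles are females, triangles males, and bars the mean of log2 CPM of 4 pigs. In the IR scar zone both males exceeded all other libraries for 8 members (all but OMD).

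The study named a fold change of 2 with a cutoff of 0.05 on the adjusted or plain p, and both are given here. At the adjusted p, 0 of 9 members passed in the scar zone with edgeR, and 0% of all 14023 genes did, the smallest adjusted p of any gene being 0.414. DESeq2 called 2 members at the adjusted p, BGN and FMOD, and 0.372% of all genes with an adjusted p. At an unadjusted p of at most 0.05 with the same fold, 4 members passed, all higher in IR pigs (BGN, FMOD, OGN and PRELP), against 2.74% of all genes. BGN and FMOD passed in this way in all 17 settings tried, PRELP in 10, OGN in 8 and ASPN in 3. Without pig 9 or without pig 12 the count was 2, BGN and FMOD, and without pig 14 it was 5. All 9 fitted differences were positive, compared with 53.9% of all genes, and the median was 0.93 for the members and 0.03 for all genes. In bulk tissue, more fibroblasts and more RNA per fibroblast cannot be told apart.

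In the border zone the same members showed no such pattern. FMOD was 33.9 and 18.1 CPM in the IR females, 17.0 and 40.2 CPM in the IR males, and 19.8, 25.6, 32.9 and 39.6 CPM in the sham pigs. BGN was 175 and 76.2 CPM in the IR females, 72.9 and 145 CPM in the IR males, and 95.4, 96.2, 128 and 101 CPM in the sham pigs. For both genes the IR values spanned the sham range on either side. DCN lay between 534 and 683 CPM in IR pigs and between 466 and 720 CPM in sham pigs. The 9 fitted differences ran from -0.11 (FMOD) to 0.41 (OMD), 5 of them positive as were 50% of all genes, and the smallest adjusted p of a member was 0.988 (edgeR). At the unadjusted p and fold of 2, 0 of 9 members passed in the border zone, where 0.517% of all genes were called higher. The closest to the threshold was OMD, with 28.9 and 37.2 CPM in the IR females, 32.4 and 41.4 CPM in the IR males and 19.1 to 35.2 CPM in sham pigs (SE 0.19, unadjusted p = 0.0560, edgeR).

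**Figure D2:**
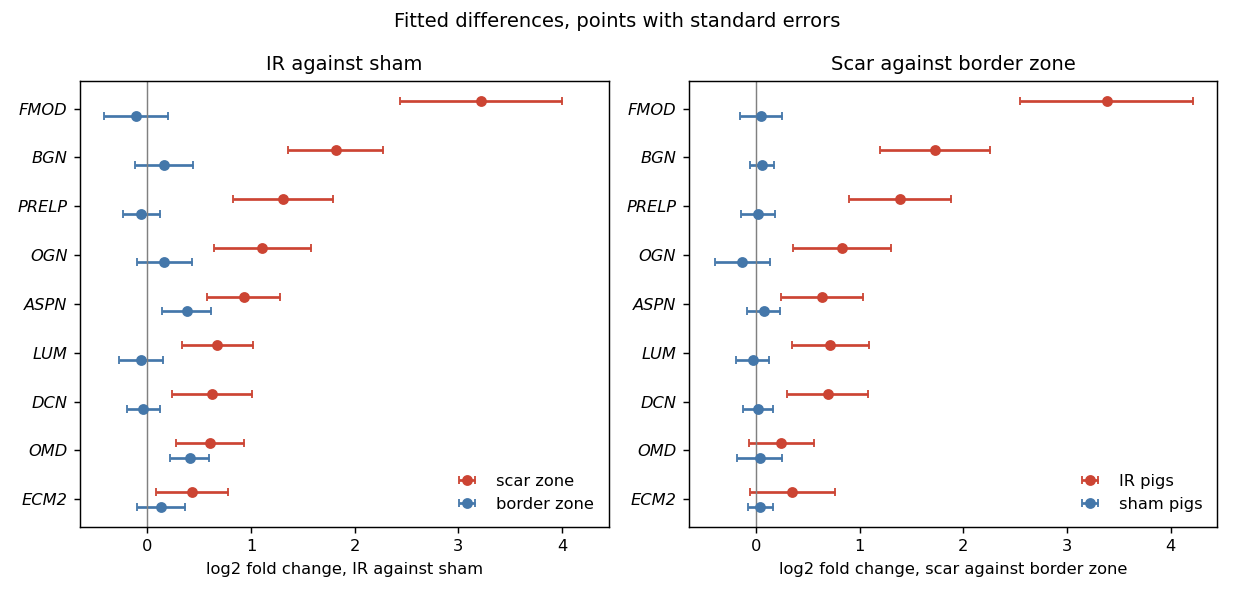
Fitted log2 fold changes of the 9 members with standard errors, for IR against sham in each zone (left, 4 against 4 libraries) and for scar against border zone in each surgery group (right, 4 against 4 libraries). FMOD, BGN and PRELP reach 3.22, 1.82 and 1.30 in the scar zone and lie between -0.11 and 0.16 in the border zone.

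The IR effect was then compared between zones. The difference between the scar and border zone effects was 3.34 for FMOD (log2, SE 0.88, unadjusted p = 0.00161, edgeR), 1.67 for BGN (SE 0.57, unadjusted p = 0.0104, edgeR) and 1.37 for PRELP (SE 0.55, unadjusted p = 0.0250, edgeR). These 3 members passed at the unadjusted p, beside 1.32% of all genes in that direction, and 0 at the adjusted p, since the adjusted p was 0.9998 for every member. With the pig as a replicate block, which uses the fact that each animal gave both libraries, FMOD (2.57, unadjusted p = 0.00940, adjusted p = 0.702, edgeR) and BGN (1.44, unadjusted p = 0.0207, edgeR) still passed at the unadjusted p, whereas PRELP (0.99, unadjusted p = 0.0904, edgeR) did not. Without pig 9, FMOD alone passed.

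Within single animals the contrast was plainest for FMOD. Its scar level was 2.11 and 2.08 times the border level in the IR females, pigs 2 and 14, and 36.9 and 9.84 times in the IR males, pigs 9 and 11. The 4 sham pigs gave ratios from 0.851 to 1.22, below all 4 IR pigs. FMOD was the only member whose within-pig ratios did not overlap between IR and sham pigs (2.03% of all genes did not, with IR higher). The scar level of BGN was 1.19 and 1.63 times the border level in the IR females and 9.21 and 3.70 times in the males, with 0.895 to 1.20 in sham pigs. DCN went both ways, with ratios of 0.916 and 0.793 in the IR females and 2.02 and 2.50 in the IR males. BGN and FMOD were the 2 members whose scar level exceeded the border level in all 4 IR pigs, which held for 10% of all genes. Without pig 14 PRELP met this rule too, at 1.10 times in the other IR female and 5.32 and 3.31 times in the males (0.874 times in pig 14), which made 3 members beside 18.7% of all genes. LUM, ASPN, OGN and OMD, like DCN, were lower in the scar zone of both IR females and higher in that of both IR males. ECM2 followed the same signs, at 0.934 and 0.988 in the females and 1.39 and 1.49 in the males.

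Tested between the zones of IR pigs, the fitted scar minus border difference was 3.38 for FMOD (SE 0.83, unadjusted p = 0.00267, edgeR), 1.73 for BGN (SE 0.53, unadjusted p = 0.00965, edgeR) and 1.38 for PRELP (SE 0.49, unadjusted p = 0.0197, edgeR). These were 3 of 9 members at the unadjusted p, against 1.69% of all genes, and the adjusted p was 0.989 for each. With the pig as a replicate block, 2 members passed at the unadjusted p, FMOD at 2.63 (unadjusted p = 0.0126, edgeR) and BGN at 1.5 (unadjusted p = 0.0191, edgeR), and PRELP did not (1.03, unadjusted p = 0.0624, edgeR). In sham pigs the corresponding differences were between -0.13 (OGN) and 0.07 (ASPN), and 0 of 9 members passed, against 0.029% of all genes called higher (0% at the adjusted p in every zone comparison).

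**Figure D3:**
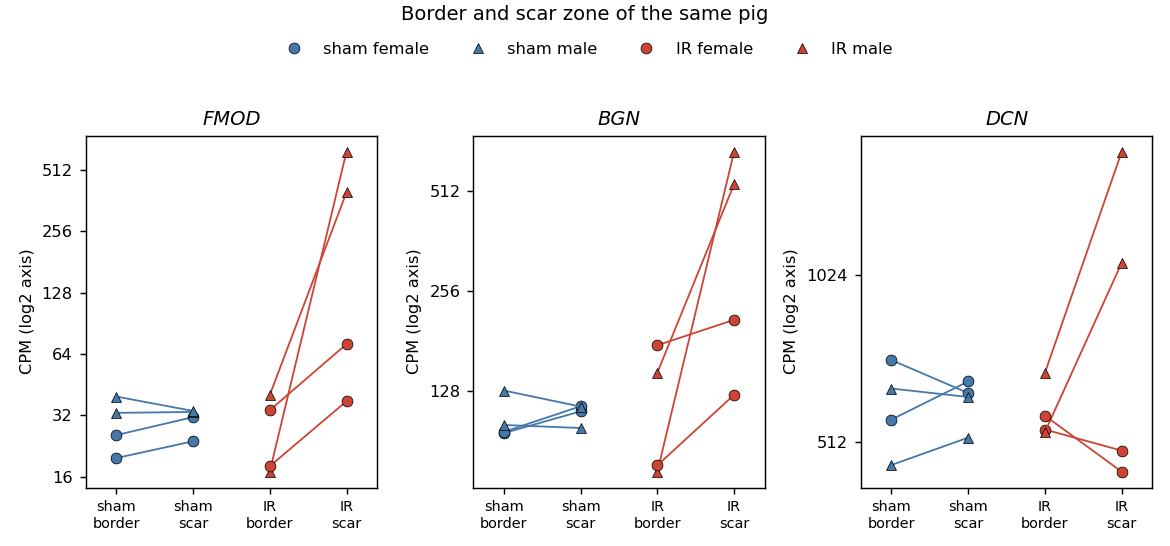
Border and scar zone levels of FMOD, BGN and DCN in the same pig, joined by a line, in CPM on a log2 axis. FMOD and BGN were higher in the scar zone of all 4 IR pigs, while DCN was higher in the 2 males and lower in the 2 females.

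Because the members' differences were uneven, their proportions were compared within each library, which needs no scaling between libraries. These ratios were chosen after the values had been seen and are given as descriptions, with no test. FMOD made up 1.91% and 1.09% of the family's TPM in the scar zone of the IR females and 6.10% and 3.17% in the IR males, compared with at most 0.884% in sham pigs. The share of DCN was 64.7% and 64.7% in the IR females and 51.6% and 67.3% in the IR males, below the sham minimum of 67.4%. The margin between pig 11 and that sham minimum was small. The FMOD to DCN ratio of TPM was 0.0295 and 0.0168 in the IR females, 0.118 and 0.0471 in the IR males, and 0.00746 to 0.0131 in sham pigs. No IR value overlapped a sham value, the mean log2 difference was 1.99, and it stayed between 1.48 and 2.41 when single pigs were left out.

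The BGN to DCN ratio was 0.233 and 0.154 in the IR females, 0.354 and 0.181 in the IR males, and 0.0898 to 0.124 in sham pigs. The log2 difference of the BGN to DCN ratio was 1.10, and it was 0.87 to 1.27 when single pigs were left out. Of the 8 other members, BGN and FMOD were the 2 whose ratio to DCN was higher in every IR than in every sham scar library, as in 0.411% of 13866 genes. FMOD and LUM compete for similar sites on collagen, and the FMOD to LUM ratio was 0.615 and 0.224 in the IR females, 1.64 and 1.09 in the IR males, and 0.174 to 0.201 in sham pigs. The log2 difference was 1.91, and FMOD exceeded LUM per transcript length in the 2 IR males and in no other library. Relative to LUM, ASPN was also higher in every IR scar library and ECM2 lower in every IR scar library, beside 0.224% and 1.13% of all genes. Both margins were small, between IR pig 11 and sham pig 13 for ASPN and between IR pig 14 and sham pig 13 for ECM2. In the border zone the IR and sham values overlapped for all 3 ratios, with log2 differences of -0.16 for FMOD to DCN, 0.08 for BGN to DCN and -0.10 for FMOD to LUM.

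**Figure D4:**
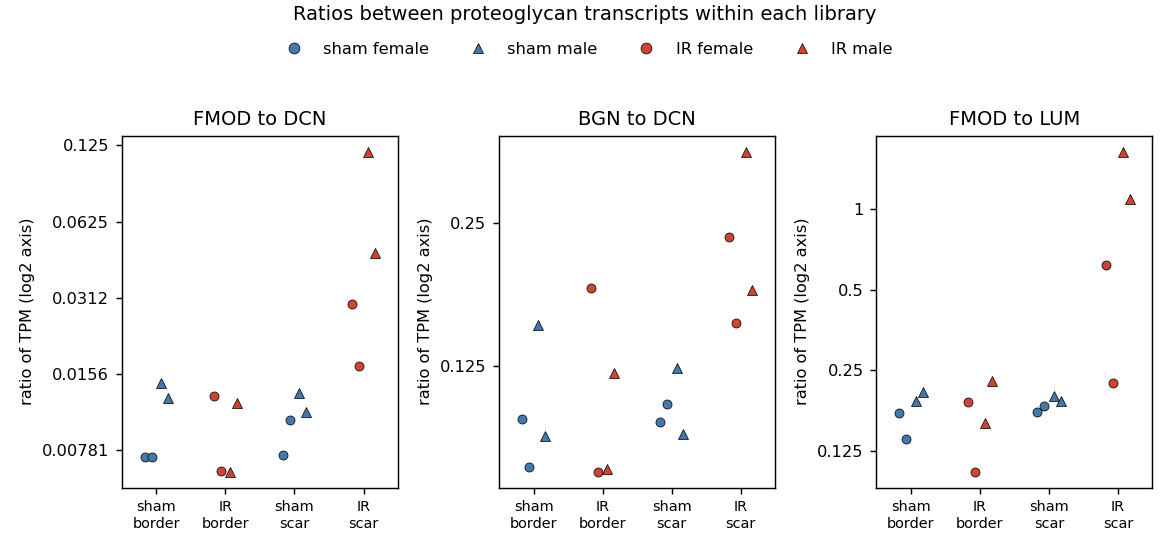
Ratios of TPM between pairs of members within each library, on log2 axes, by surgery and zone, with females as circles and males as triangles. All 4 IR scar zone libraries lie above the 4 sham scar zone libraries in each panel, and the border zone groups overlap.

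The summed TPM of the family showed how far the IR pigs differed from each other. It was 684 and 589 TPM in the scar zone of the IR females and 2780 and 2566 TPM in the IR males, against 696 to 829 TPM in sham pigs. The females were thus below all sham pigs and the males above them, and the groups overlapped. On the TPM scale the median of all genes was itself shifted by 0.38 to 0.43 (log2) in the comparison of the sexes. TPM sums may include part of that shift, and which group carries it was not tested. In the border zone the sum was 721 to 805 TPM in IR pigs and 590 to 828 TPM in sham pigs.

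Male and female IR effects were therefore compared directly, with 2 pigs in each sex and surgery group. In the scar zone both IR males exceeded both sham males for all 9 members, against 29.3% of all genes. Both IR females exceeded both sham females for 2 members, BGN and FMOD (20.6% of all genes), and both lay below both sham females for DCN (21% of all genes). Mean FMOD was 15.3 times the sham mean in males and 1.97 times in females. For BGN the same ratios were 5.67 and 1.48, for PRELP 4.08 and 0.954, and for DCN 2.45 and 0.736. For 8 members, all but OMD, both male IR scar libraries exceeded all 14 others, as in 10.6% of all genes.

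The IR effect was larger in males for 4 members at the adjusted p, beside 1.33% of all genes called in either direction. The male minus female difference in the IR effect was 2.95 for FMOD (log2, SE 0.47, adjusted p = 0.0367, edgeR), 2.09 for PRELP (SE 0.37, adjusted p = 0.0430, edgeR), 1.94 for BGN (SE 0.35, adjusted p = 0.0442, edgeR) and 1.73 for DCN (SE 0.31, adjusted p = 0.0430, edgeR). LUM (1.25, adjusted p = 0.0676, edgeR), OGN (1.22, adjusted p = 0.0854, edgeR), ASPN (0.98, adjusted p = 0.0989, edgeR), ECM2 (1.23, adjusted p = 0.110, edgeR) and OMD (0.55, adjusted p = 0.555, edgeR) did not pass. At the unadjusted p and fold of 2, 7 members were called, against 6.2% of all genes. The adjusted calls were lost for all 4 members without pig 4, 5, 12, 13 or 14 and with 1 factor of unwanted variation. The count was 2 without pig 2, 1 without pig 9 and 3 without pig 11. Leaving out a pig leaves 1 pig in its sex and surgery group, whose spread then comes from the other groups. A call lost in that way cannot tell a weaker effect from the smaller number of pigs. The direction held for all 4 members in each of the fits above, the FMOD difference staying between 2.55 and 3.5 when a pig was left out. In the border zone, a comparison added after the data were seen, the male minus female differences ran from -0.58 (LUM) to 0.76 (ECM2), and 0 of 9 members passed (smallest adjusted p = 0.728, edgeR), against 0.014% of all genes called in either direction.

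**Figure D5:**
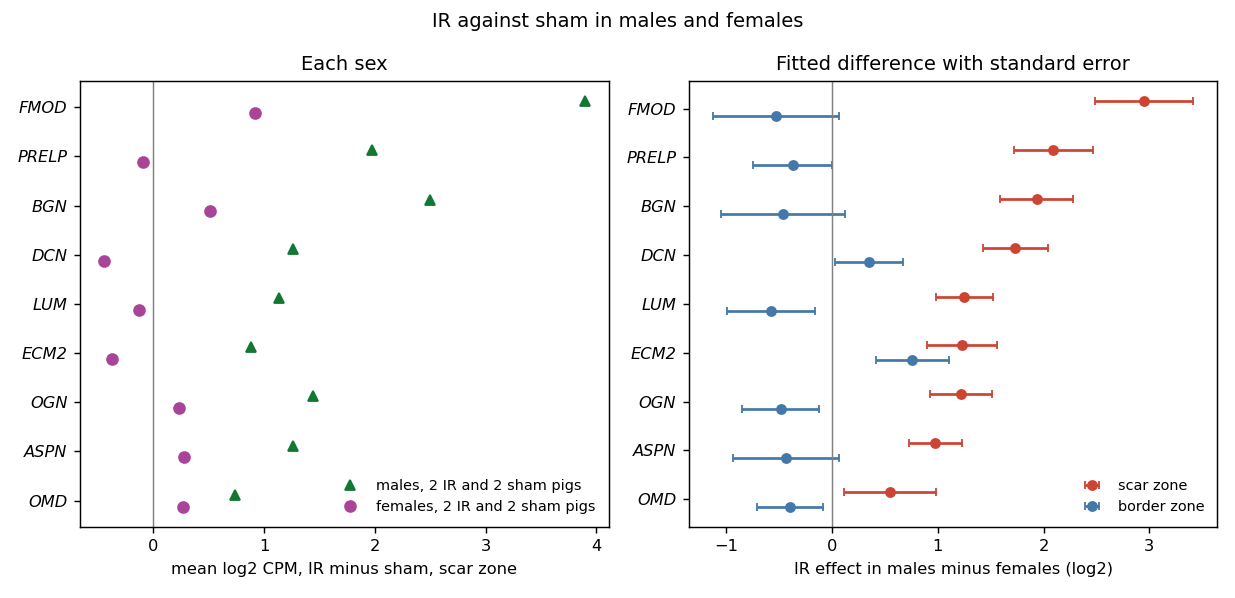
IR minus sham mean log2 CPM in the scar zone for each sex (left, 2 IR and 2 sham pigs per sex), and the fitted male minus female difference in the IR effect with its standard error in each zone (right). In males all 9 members lie above 0, in females FMOD and BGN lie highest, and the border zone differences lie on both sides of 0.

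Correlations between members are given as a description. Over the 16 libraries, which share the 8 animals, the Pearson correlation of log2 CPM between pairs of members ran from 0.46 to 0.97 with a median of 0.78. The median was 0.82 over the 8 IR libraries and 0.35 over the 8 sham libraries, where the lowest pair was at -0.70 and the highest at 0.83. The IR set includes the 2 male scar libraries, which stood above all others for 8 members, and the sham libraries spanned a narrower range. The closest pair was BGN with FMOD, at 0.97, although these genes lie apart in the genome. In the 8 sham libraries BGN and FMOD correlated at 0.35.

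For each member the 3 non-member genes with the most similar pattern over 16 libraries were taken from 12158 symbols. These correlations include the 2 IR male scar libraries, and over the 8 sham libraries alone those of the same pairs ran from 0.17 (BGN with FKBP10) to 0.94 (OGN with LOX), with 0.55 for BGN with RCN3 and 0.47 for FMOD with OLFML2B. BGN was closest to RCN3 (r = 0.97), AEBP1 and FKBP10, the last a collagen prolyl isomerase. FMOD was closest to OLFML2B (r = 0.97), PTN and AEBP1, and AEBP1 was the only gene named for both. DCN was closest to COL3A1 (r = 0.95), COL5A2 and DUOX2, the first 2 being fibrillar collagen chains. PRELP was closest to FN1 (r = 0.97), THBS2 and ASAP3, and LUM to ANTXR1 (r = 0.94), CDH11 and FSTL1. OGN was closest to PROS1 (r = 0.96), LOX and LHFPL6, where LOX is the enzyme that crosslinks collagen. ASPN was closest to CALD1 (r = 0.95), CHSY1 and P4HA1, OMD to LRRC70 (r = 0.92) and also to SIGLEC1, and ECM2 to TUT7 (r = 0.93), LIPA and DSEL. CHSY1 and DSEL act in making chondroitin and dermatan sulfate chains.

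Relatives with the same repeats outside the 9 were low in the sham scar zone, at 6.60 to 10.3 TPM in sum, and summed to 6.09 to 14.05 TPM in the IR females and 57.6 to 67.6 TPM in the IR males. KERA, the corneal keratan sulfate proteoglycan that neighbors LUM, was 1.5 to 24.9 CPM in the IR scar zone and 0.356 to 1.56 CPM in the sham scar zone, with a fitted difference of 3.51 (SE 0.88, unadjusted p = 0.00293, edgeR), and it reached 10 counts in 2 of the 4 sham and all 4 IR scar libraries. CHAD (chondroadherin) was 3.26 to 37.6 CPM against 3.09 to 4.50 CPM, a difference of 2.02 (SE 0.61, unadjusted p = 0.00822, edgeR). NYX was lower in IR pigs, at 0.272 to 0.631 against 0.687 to 1.39 CPM (log2 difference -1.06, SE 0.38, unadjusted p = 0.0207, edgeR). Its counts were low, at most 18 in the IR and 32 in the sham scar libraries. TSKU (1.03, unadjusted p = 0.0527, edgeR) and CHADL (-0.78, unadjusted p = 0.0853, edgeR) did not pass. EPYC had 0 counts in the sham scar libraries and at most 12 in the IR scar libraries, OPTC had at most 4 and PODNL1 at most 200 counts in any IR scar library, and PODN was not analysed here.

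Enzymes that build the sugar chains were listed beside the members. Of 23 tested genes for the linkage and for chondroitin or dermatan sulfate, 0 passed at the unadjusted p and fold of 2 in the scar zone, with a median of 0.04. The highest were CHST11, a chondroitin sulfotransferase (0.79, SE 0.25, unadjusted p = 0.0117, edgeR), and CHPF (0.71, SE 0.27, unadjusted p = 0.0257, edgeR). The lowest was PXYLP1, a xylose phosphatase of the linkage region (-0.72, SE 0.15, unadjusted p = 0.000833 and adjusted p = 0.438, edgeR). It was also lower in the border zone (-0.41, unadjusted p = 0.0363, edgeR). FAM20B (-0.71, unadjusted p = 0.00479, edgeR), UXS1, CHST15 and XYLT1 were lower in the scar zone too. All of these were under the fold of 2. Of 7 tested genes listed for keratan sulfate, 0 passed, with B3GNT7 (0.62, SE 0.56) and B4GALT1 (0.59, SE 0.23) the highest. The lowest on that list was SLC35D1 (-0.30, SE 0.11), a transporter of nucleotide sugars that is known for supplying chondroitin sulfate synthesis.

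Among 11 tested genes listed for SLRP processing, which include protease enhancers and an inhibitor, 2 passed as higher in IR scar tissue by the unadjusted p and fold, beside 2.74% of all genes. They were PCOLCE, an enhancer of procollagen cleavage (1.05, SE 0.45), and MMP9 (3.84, SE 1.56). MMP9 reached 10 counts in 1 of the 4 IR scar libraries, where it had 972, and in 2 of the 4 sham scar libraries, so its call rests on a single library, and it was not tested in the border zone. TLL1 (1.36, SE 0.87) did not pass, and TIMP3 was the lowest (-0.0011, SE 0.23). BMP1, which cleaves the biglycan propeptide, was 47.1 to 145 CPM in IR and 57.5 to 81.5 CPM in sham pigs (0.60, SE 0.30, unadjusted p = 0.0805, edgeR), and MMP2 differed by 0.65 (SE 0.40, unadjusted p = 0.142, edgeR). Among 21 receptors and signaling partners, 2 passed by the same rule (2.74% of all genes), TGFB3 (1.07, SE 0.39, unadjusted p = 0.0214, edgeR) and LY96, the Toll-like receptor co-receptor (1.06, SE 0.40, unadjusted p = 0.0267, edgeR). MSTN was the lowest (-1.57, SE 0.79). TGFB2 differed by 0.95 (SE 0.27, unadjusted p = 0.00626, edgeR), under the fold of 2. TGFB1 (-0.16, SE 0.13), TLR2 (0.51, SE 0.34) and TLR4 (0.44, SE 0.25) did not pass.

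Collagens and other matrix genes that SLRPs bind were counted next. Of 19 tested genes for fibrillar collagens and SLRP-bound matrix, 9 were higher in IR scar tissue by the unadjusted p and fold of 2, beside 2.74% of all genes, with a median of 1.13. The highest were COMP (5.76, SE 1.65) and COL11A1 (4.58, SE 1.23), while HSPG2 was the lowest (-0.09, SE 0.16). COMP reached 10 counts in all 4 IR but 1 sham scar library and was not tested in the border zone, so it entered the test mainly through the libraries where it was high. COL1A1 differed by 1.96 (SE 0.64, unadjusted p = 0.0129, edgeR) and COL3A1 by 1.13 (SE 0.55, unadjusted p = 0.0693, edgeR). In the test of sex, 10 of the 19 were called higher in males at the adjusted p (1.33% of all genes in either direction), COL1A1 at 3.15 (adjusted p = 0.0243, edgeR) and COL3A1 at 2.73 (adjusted p = 0.0108, edgeR). That count was 0 of 20 tested genes without pig 12 or 13, 4 without pig 4 or 14 and 5 without pig 5.

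In sum, fibroblast markers were highest in the same IR male scar libraries, though not each of them, and their part in the members' differences was not tested. Of 13 tested fibroblast markers 3 were higher in IR scar tissue by the unadjusted p and fold (2.74% of all genes), PDGFRL, PI16 (1.86, SE 0.63) and LAMC3 (1.61, SE 0.59), and SCARA5 was the lowest (0.12, SE 0.59). PDGFRA, the receptor that marks cardiac fibroblasts, differed by 0.26 (SE 0.38, unadjusted p = 0.509, edgeR). The 14 markers with a row, none at 0 throughout a scar zone group, summed to 679 to 1097 TPM in the IR females, 2115 to 3252 TPM in the IR males and 891 to 1117 TPM in sham pigs. Of 8 tested markers of activated fibroblasts, 4 were higher, including POSTN (1.85, SE 0.70, unadjusted p = 0.0248, edgeR), TNC (3.48, SE 0.95) and CTHRC1 (2.45, SE 0.69), and LOXL2 was the lowest (0.07, SE 0.17). Their sum was 147 to 189 TPM in the IR females, 465 to 1035 TPM in the IR males and 159 to 250 TPM in sham pigs. In the test of sex 6 of 13 fibroblast markers and 3 of 8 activated markers were higher in males at the adjusted p, beside 1.33% of all genes in either direction, PDGFRA at 1.75 (adjusted p = 0.0279, edgeR). LAMC3 (-1.52, SE 1.02), which had the opposite sign, MFAP5 (0.16, SE 0.51) and GSN (0.32, SE 0.46) did not pass. These counts were 0 and 0 without pig 12 or 13, 2 and 0 without pig 14, 1 and 1 without pig 4, and 4 and 1 without pig 2 or 5.

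Markers of other cell types were counted in the same way in the scar zone, and their part in the members' differences was not tested. Of 8 chondrocyte markers 5 passed as higher, beside 2.74% of all genes. COMP and CHAD among them were also counted on lists above. Of the 5, 3 had few counts in the sham scar libraries and were not tested in the border zone. They were COMP, with the low sham counts given above, CILP2 (5.33, SE 1.5), with 9.28 to 16 counts in sham scar libraries, and ACAN, which reached 10 counts in 2 sham and 3 IR scar libraries. The lowest was HAPLN1 (-0.21, SE 0.79), and the sum of the markers was 7.45 to 20.2 TPM in the IR females, 30.3 to 265 TPM in the IR males and 5.96 to 12.4 TPM in sham pigs. Of 11 smooth muscle and pericyte markers 1 was higher, CNN1 (1.17, SE 0.43), as was 1 of 2 tested mesothelial markers, KRT8 (1.43, SE 0.57). The share of all genes was again 2.74%. None passed among 12 cardiomyocyte, 9 endothelial, 12 macrophage, 10 lymphocyte, 5 adipocyte, 8 Schwann cell and 3 erythroid markers. The 12 macrophage markers were nonetheless all positive (median 0.60), as were 53.9% of all genes. MSR1 (0.93, SE 0.37) and CD68 (0.91, SE 0.42) were the highest. The macrophage markers summed to 144 to 158 TPM in the IR females, 446 to 551 TPM in the IR males and 116 to 215 TPM in sham pigs. The 12 cardiomyocyte markers had a median of -0.28, with TNNI3 the lowest (-0.48, SE 0.27), and summed to 75930 to 78064 TPM in the IR males and 87640 to 88285 TPM in the IR females.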

How the data were processed

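Polyadenylated RNA libraries (TruSeq stranded mRNA, 75 base paired reads, HiSeq 2500) came from 16 blocks of left ventricle. The authors trimmed reads with Trimmomatic 0.33 and quantified genes with kallisto 0.43.1 against pig Ensembl transcripts. The submitters' processing notes also list HISAT2 2.0.5. The build and release are not given in the sources used here. The deposited tables hold estimated counts per gene, which kallisto may divide between similar transcripts, and TPM, which the authors scaled for length and library.

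Estimated counts were rounded and tested with edgeR 4.0.16 (TMM scaling, quasi-likelihood fit, minimum count 10 and total 15, Benjamini-Hochberg adjustment over the whole table of tested genes). Calls were made at a fold change of 2 and p of 0.05, adjusted or unadjusted. CPM are TMM-scaled. In the design without a block the libraries of a zone comparison count as independent. Same-numbered libraries come from the same pig, and their deviations from the group means correlated at 0.353 to 0.690 for each pig. Single values were compared with exact two-sided permutation tests. Alternatives used DESeq2 1.42.0, limma 3.58.1 on log2(TPM + 1) and log2(TPM + 0.1), 1 factor of unwanted variation (the study removed unwanted variation, with settings not given in the sources used here), sex as a covariate, other scaling, no filter and leaving out each pig. R was 4.3.3. The fits were tested on simulated data.

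Genes named are the 9 members, the 3 most similar genes of each (1 of them is not reported here), the 2 highest and the lowest of each list in the scar zone, and a set of relatives, ligands, receptors, proteases and collagens. Members and lists were chosen with earlier results of these data known. PDGFRL, MFAP5, GSN, ACAN, PCOLCE, MMP9, LY96, FAM20B, UXS1, CHST15, XYLT1 and DDX3Y, where outside that rule, were named after their values were seen. DCN counts were whole in all 16 libraries, those of OGN in 8, and BGN, LUM, FMOD, OMD, PRELP and ECM2 had none that were whole to within 1e-06. Gene order came from RefSeq on Sscrofa11.1 and sequences were not used here.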

Additional observations from a re-analysis of the deposited data

Results flagged for a closer look

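The IR effect in the scar zone was larger in males than in females for 4 members by the edgeR test of the difference itself, with 2 pigs per sex and surgery. The log2 difference was 2.95 for FMOD, 2.09 for PRELP, 1.94 for BGN and 1.73 for DCN. All 4 adjusted calls were lost without pig 4, 5, 12, 13 or 14 and with 1 factor of unwanted variation, with the direction kept. Leaving out a pig leaves 1 pig in its sex and surgery group. The IR males also had the deepest libraries, and sex and depth cannot be told apart within the IR group.

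By a test for a single distant value in groups of 4, 2 of 36 combinations of member and group stood out, where chance gives about 1 in 20. LUM was lowest in the border zone of IR pig 9, at 105 CPM, and ASPN was highest in the border zone of sham pig 13, at 137 CPM.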

How the results depend on the processing

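BGN and FMOD kept their direction and passed at the unadjusted p in the scar zone under every alternative run. The count of members called there at the adjusted p was 2 with DESeq2, and at the unadjusted p 2 with limma at either pseudocount, with 1 factor of unwanted variation and with sex as a covariate, and 2 to 5 when a pig was left out. Leaving out a pig gave 1 to 4 for the zone difference in IR effect and for scar against border in IR pigs, 0 to 3 for the sex difference in the scar zone at the adjusted p, and 0 to 2 for its border zone counterpart by the unadjusted p. The sex difference called 7 members with DESeq2 (5% of all genes), 8 and 7 with limma (3.56% and 2.89%), and 0 with 1 factor of unwanted variation (0.465%). The pig as a replicate block gave 2 in place of 3 called members for the zone difference in IR effect and for scar against border in IR pigs, and changed no other call.

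Most reversals occurred at small values. IR minus sham in the border zone became 0.020 and 0.020 for DCN and 0.012 and 0.014 for PRELP with limma at the pseudocounts of 1 and 0.1. Leaving out pigs gave, in the border zone, -0.10 to 0.34 for BGN, -0.14 to 0.064 for DCN, -0.20 to 0.095 for LUM, -0.36 to 0.071 for FMOD, -0.044 to 0.33 for OGN, -0.22 to 0.032 for PRELP and -0.032 to 0.32 for ECM2. OMD ran from -0.12 to 0.33 for the zone difference and -0.080 to 0.37 between zones of IR pigs. Between zones of sham pigs LUM was 0.0027 and 0.0043 with limma, and leaving out pigs gave -0.0083 to 0.15 for BGN, -0.050 to 0.10 for DCN, -0.099 to 0.0021 for LUM, -0.030 to 0.17 for FMOD, -0.034 to 0.12 for ASPN, -0.012 to 0.095 for OMD, -0.17 to 0.10 for PRELP and -0.022 to 0.075 for ECM2. The border zone sex difference, fitted at -0.46 for BGN and -0.44 for ASPN with all pigs, ran from -1.05 to 0.26 for BGN and -1.15 to 0.047 for ASPN. The causes were not tested.

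On the TPM scale the median of all genes moved by 0.15 to 0.17 in the scar zone and by 0.38 to 0.43 in the test of sex. TPM sums may include part of that shift, and which group carries it was not tested. With 4 pigs per group an exact permutation test cannot go below 0.0286, and 2 pigs per sex limit the sex test.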
